A study of Mus musculus with 32 samples.

Results

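The enzymes and the receptor of endocannabinoid signalling were followed through 6 of the 55573 genes in the count table: Dagla, Daglb, Napepld, Cnr1, Mgll and Faah. The genes were taken by their symbols. Mgll was chosen by its neurite enrichment, and the rule does not name the libraries behind that choice, so its values are given here as a description, without a test, and counts of genes called cover the other 5. The other 5 genes act in the same pathway.

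Endocannabinoids are lipid messengers that neurons make on demand from membrane lipids, and in the hippocampus they mostly travel backwards across the synapse. The diacylglycerol lipases Dagla and Daglb make 2-arachidonoylglycerol, and the phospholipase D Napepld makes N-acylethanolamines such as anandamide. The receptor encoded by Cnr1 sits largely on axon terminals and lowers transmitter release there, while monoacylglycerol lipase (Mgll) breaks down 2-arachidonoylglycerol and fatty acid amide hydrolase (Faah) breaks down anandamide.

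Hippocampal neurons of newborn mice were grown on porous membranes, and the cell bodies (soma) and neurites were scraped from the opposite faces at DIV15 (day 15 in vitro). Wild-type (WT) neurons came from C57BL/6 mice and Mettl3 KO neurons from Mettl3Flox/Flox mice, which lose the writer of the RNA mark m6A after Cre. Every culture, WT included, received AAV-hSyn-Cre-P2A-dTomato at DIV7 and was silenced for 16 h from DIV14 by tetrodotoxin (1 µM) together with the NMDA receptor blocker D-AP5 (50 µM), and the KCl groups then received 55 mM KCl for 2 h, while the Ctrl groups did not. RNA-seq covered 16 libraries in 8 groups of 2 (WT or Mettl3 KO, soma or neurites, Ctrl or KCl), and 16 parallel libraries were made by DART-seq, in which a fusion of APOBEC1 and the YTH domain turns cytidines next to m6A into uridines. The synapsin promoter limits Cre to neurons, so glia in the cultures keep Mettl3. Each culture pools the pups of a litter of both sexes, and duplicates came from distinct litters. Ctrl and KCl cultures that were compared shared a litter. Neurites that do not cross the pores stay in the soma fraction.

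The libraries held 33789183 to 71394235 counts. Mettl3, the deleted gene, stood at 13.5 to 16.7 CPM (counts scaled to library size by TMM over the 16 libraries) in WT soma and at 6.18 to 11.0 CPM in Mettl3 KO soma, and at 9.04 to 12.4 CPM in WT neurites and 3.91 to 8.23 CPM in Mettl3 KO neurites. The genotypes did not overlap within a fraction, and the count of the whole gene includes exons that Cre leaves in place. The neuronal marker list (7 genes) was present in every library, with no gene of it at 0. Both libraries of KCl-treated Mettl3 KO replicate 1 stood apart: the 9 markers of the oligodendrocyte lineage summed to 4641 CPM in soma and 9414 CPM in neurites there, against 134 and 137 CPM in replicate 2, and the 7 neuronal markers to 1739 and 1865 CPM, against 3923 and 7461 CPM. The 9 astrocyte markers summed to 9883 and 19315 CPM there, against 2569 and 2812 CPM. Markers of microglia (234 and 172 CPM) and of fibroblasts and vessels (94.0 and 588 CPM) were also higher there than in replicate 2. The log2 ratio of replicate 1 to replicate 2 had an SD across 15170 genes of 0.167 to 0.364 in the 4 WT groups and 0.502 to 1.33 in the 4 Mettl3 KO groups. Comparisons within WT were therefore fitted on the 8 WT libraries alone. Levels are scaled over 16 libraries and fits over the libraries they hold, so a ratio of printed levels can differ slightly from a fitted one.

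DART-seq placed sites in 3 of the 6 RNAs. Over the whole series 5643 RNAs had called sites, where 55573 genes were counted and 23200 were tested for neurites against soma in WT Ctrl. A difference of the 6 from that share was not tested. The windows around the sites are shown because they hold the edited positions that the editing values below refer to. The deposited list holds 18231 edited cytidines, and in the GRCm38 reference every one of them follows an A that follows A or G, as the authors' calling required. Cnr1, Faah and Mgll hold 10 of them. Each window below has 12 bases on either side of the edited C, read from the genome on the strand of the gene, with the edited C and the 2 bases before it in capitals. A window in a coding exon can run into the next intron.
Cnr1, chr4:33946172-33946172: tctatcttgtAACtgttacagaaat
Cnr1, chr4:33946216-33946216: accaagggtaAACagtaccacttgc
Cnr1, chr4:33946631-33946631: tacagagggtGACagcccagtacct
Cnr1, chr4:33946946-33946946: ttcccagcctGACagggcagtaccc
Mgll, chr6:88826018-88826018: tctacacagaGACtgtgtggaaata
Mgll, chr6:88827608-88827608: tttcatgcatGACatcatttagaga
Faah, chr4:116017533-116017533: ggggcgcggtGACcagggcgcggca
Faah, chr4:116005391-116005391: acgagggtgtGACatcggagagtga
Faah, chr4:116004388-116004388: gttccgcttgGACtccaccatcccc
Faah, chr4:116002460-116002460: ttttctccaaAACttgtgagtgtga

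The 4 sites of Cnr1 lay in its last exon, in the 3′UTR of both annotated protein-coding transcripts, 1137 to 1911 bases after the stop codon. The 2 sites of Mgll lay 242 and 1832 bases after the stop codon, in the last exon and 3′UTR of 3 of its 6 protein-coding transcripts, and outside the other 3. The 4 sites of Faah lay in coding exons of its only protein-coding transcript, none of them in the last exon. GAC, searched on the strand of the RNA, was found at 7 of the 10 sites, and at 53.7% of all 18231 sites. GGAC, which is part of the GAC matches, was found at 1 of the 10, in Faah, and at 16.2% of all.

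The 6 genes lie on 4 chromosomes of GRCm38. Mgll spans chromosome 6 from 88724412 to 88828360 on the plus strand (ENSMUSG00000033174), Cnr1 chromosome 4 from 33924593 to 33948831 on the plus strand (ENSMUSG00000044288), and Faah the same chromosome from 115967145 to 116017926 on the minus strand (ENSMUSG00000034171). Dagla spans chromosome 19 from 10245265 to 10304877 on the minus strand (ENSMUSG00000035735). Daglb spans chromosome 5 from 143464584 to 143505942 on the plus strand (ENSMUSG00000039206), and Napepld the same chromosome from 21662901 to 21701396 on the minus strand (ENSMUSG00000044968). Exons of Daglb share 2309 bases, 24.1% of its exon length, with Rac1 on the opposite strand. The fragments were counted without regard to strand, so reads of this stretch cannot be assigned to either gene and the values of Daglb are uncertain. Mgll shares 167 exon bases (3.29%) with the antisense gene Gm26588.

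All 6 RNAs were present in soma and neurites of untreated WT neurons, at levels that differed by about an order of magnitude between genes. Levels are compared between genes per kilobase of exon (FPKM, from TMM-scaled counts). In WT Ctrl soma the receptor gene Cnr1 was highest, at 38.2 FPKM ± 3.73 (SD, n = 2). Dagla followed at 19.1 ± 0.77 (SD, n = 2), Faah at 17.5 ± 0.49 (SD, n = 2) and Mgll at 14.5 ± 0.043 FPKM (SD, n = 2). Daglb, at 4.36 ± 0.21 (SD, n = 2), and Napepld, at 3.85 ± 0.17 FPKM (SD, n = 2), were lowest. The libraries of neighbouring genes in this order did not overlap. The order rests on the annotated exon lengths, which need not be those of the RNAs present. Before division by length, Faah (137 CPM) stood above Dagla (110 CPM) in WT Ctrl soma, and Faah (160 CPM) above Cnr1 (147 CPM) in WT Ctrl neurites.
In WT Ctrl neurites Mgll was highest, at 48.3 FPKM ± 9.14 (SD, n = 2). Cnr1 stood at 22.8 ± 2.86 (SD, n = 2) and Faah at 20.4 ± 0.50 FPKM (SD, n = 2), and the nearest libraries of this pair were both at 20.8 FPKM, so these neighbours did not differ beyond their spread. Dagla followed at 15.9 ± 3.73 (SD, n = 2). Daglb and Napepld, at 3.72 and 3.71 FPKM, overlapped.

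**Figure D1:**
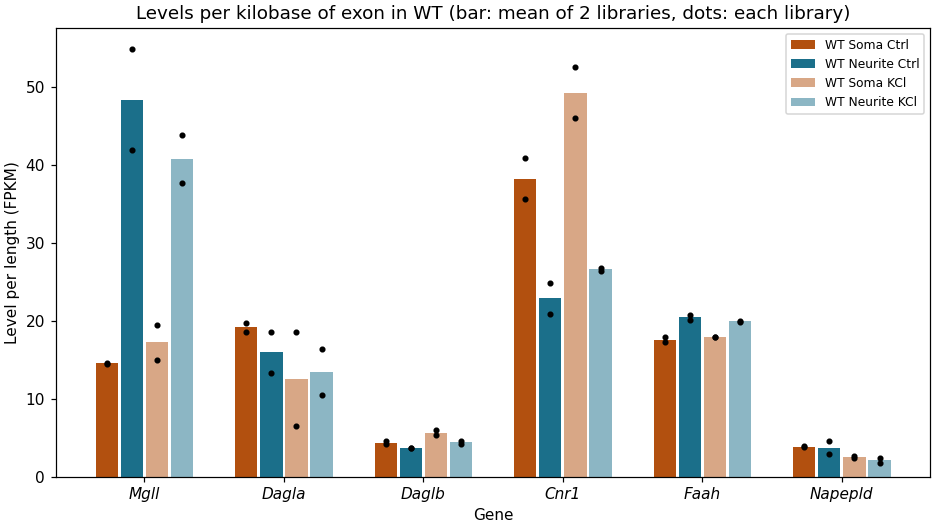
Levels per kilobase of exon (FPKM, vertical axis) of the 6 genes in the 4 WT groups, as the mean of 2 libraries (bars) and each library (dots). Mgll in neurites (48.3 FPKM in Ctrl) and Cnr1 in soma (38.2 FPKM in Ctrl) stand highest, and the group means of Daglb and Napepld reach at most 5.65 FPKM.

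The neurite over soma ratio differed in direction between Mgll and Cnr1. The libraries of Mgll, the gene picked for this trait, were higher in neurites, and Cnr1 was lower in neurites in both WT conditions, while Dagla, Daglb, Napepld and Faah did not pass the test. Calls needed a 1.5-fold change or more and a two-sided p from edgeR's quasi-likelihood test of 0.05 or less after Benjamini-Hochberg adjustment over all genes tested, which were those averaging 10 counts or more in the libraries compared.

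In WT Ctrl, the level of Mgll, given as a description, was 73.8 and 73.5 CPM in soma and 213 and 278 CPM in neurites, so that the fractions did not overlap. The fitted log2 ratio was 1.64 (SE 0.16), and 98.7% of the 23200 genes tested had a lower one. The gene was chosen by this trait, so nothing is read from that place. In WT KCl, Mgll stood at 98.6 and 76.0 CPM in soma and at 222 and 191 CPM in neurites, again without overlap. The fitted log2 ratio there was 1.26 (SE 0.16), or 2.40-fold, likewise a description.

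Cnr1 showed the opposite distribution. In WT Ctrl it was counted at 263 and 229 CPM in soma and at 160.2 and 134 CPM in neurites, and every soma library was above every neurite library. The level was 1.78-fold lower in neurites (log2 −0.84, SE 0.13, 95% interval −1.11 to −0.56, edgeR adjusted p = 0.00193). In WT KCl the soma libraries stood at 338 and 296 CPM and the neurite libraries at 170 and 173 CPM. The log2 ratio was −0.87 (SE 0.13, edgeR adjusted p = 0.00198). RNA of Cnr1 is known to be especially abundant in a class of inhibitory interneurons. The 7 inhibitory markers summed to 644 to 682 CPM in WT Ctrl soma and 519 to 562 CPM in WT Ctrl neurites, and to 999 to 1088 and 659.8 to 676 CPM with KCl. Their part in the result was not tested. In bulk fractions a smaller share of cells or processes of a type and less RNA in each cannot be told apart.

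Apart from Mgll, 1 of 5 members was called in WT Ctrl (Cnr1, lower), where 13.6% of all genes tested were called in either direction. In WT KCl, 1 of 5 was called (Cnr1, lower), against 9.6% of all genes tested. The median log2 ratio of the 5 was −0.32 in WT Ctrl, against −0.10 over all genes tested, and −0.22 in WT KCl, against −0.03. With all 16 libraries in 1 fit neither call was made, and DESeq2 on the WT libraries called 1 of the 5 in each condition.

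Neither lipase of synthesis was called. Daglb, with 43.2 and 40.3 CPM in soma and 35.7 and 35.6 CPM in neurites in WT Ctrl, had a log2 ratio of −0.32 (SE 0.11, edgeR adjusted p = 0.0750), and one of −0.34 (SE 0.11, edgeR adjusted p = 0.0750) with KCl. Its neurite libraries lay below its soma libraries in both conditions, by less than 1.5-fold. Dagla gave 107 and 113 CPM in soma and 107 and 76.4 CPM in neurites in WT Ctrl, with an interval of the log2 ratio from −1.22 to 0.51.
With KCl, the soma libraries of Dagla stood far apart, at 37.3 CPM in replicate 1 and 106 CPM in replicate 2, while its neurite libraries stood at 94.0 and 60.2 CPM. Raw counts of Dagla were 1968 and 7331 in these soma libraries, and same-numbered fractions gave log2 ratios of 1.33 and −0.82, on opposite sides of 0. Without replicate 2 of WT KCl soma the log2 ratio was 1.08 and passed the test (edgeR adjusted p = 0.0218), and without replicate 1 it was −0.44, so the sign rests on that pair of libraries.

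Neither enzyme of anandamide turnover was called. Faah gave 135 and 140.2 CPM in WT Ctrl soma and 157 and 163 CPM in WT Ctrl neurites. Its fitted log2 ratio was 0.12 (SE 0.10, 95% interval −0.09 to 0.34) in WT Ctrl and 0.16 (SE 0.10, 95% interval −0.06 to 0.38) in WT KCl. Napepld, the least abundant, gave 14.8 and 15.7 CPM in WT Ctrl soma and 11.3 and 18.1 CPM in neurites, and its interval ran from −0.66 to 0.34. The neurite libraries of Napepld lay on either side of the soma libraries.

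**Figure D2:**
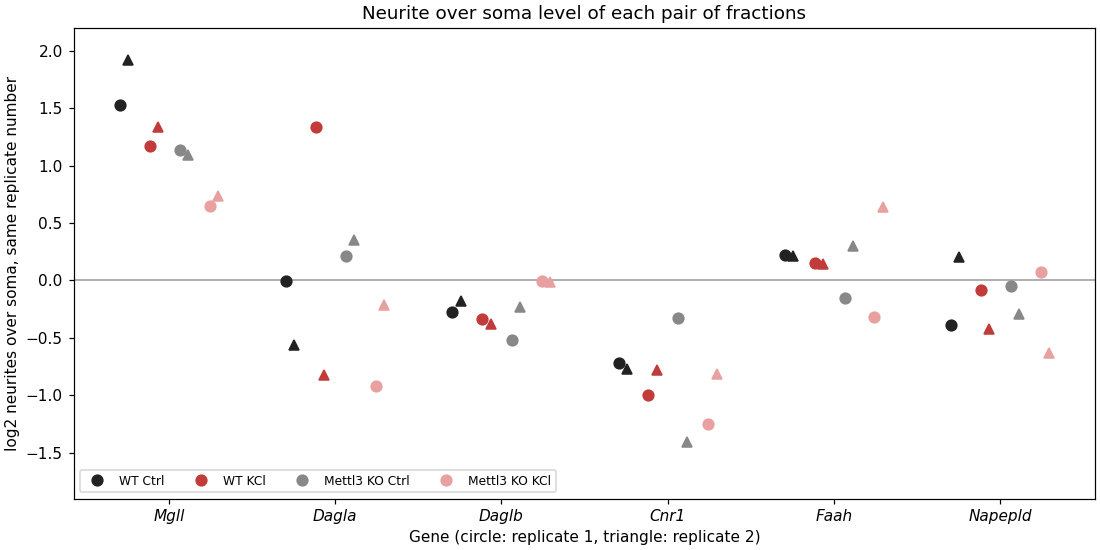
Log2 ratio of neurite to soma level (vertical axis) for each gene and each pair of fractions with the same replicate number, with the genotype and treatment as colour. Mgll lies above 0 in all 8 pairs (0.65 to 1.92) and Cnr1 below 0 in all 8 (−1.41 to −0.33), while Dagla in WT KCl gives 1.33 and −0.82.

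Related genes were counted as a list of 24 in the table. Among others, it holds Plcb1, Plcb4, Abhd4, Gde1, Pla2g4e and Hrasls5 (lipid precursors and synthesis), Abhd6, Abhd12, Naaa and Ptgs2 (other hydrolysis or oxidation), Cnr2, Gpr55, Trpv1 and Gpr119 (other receptors), Cnrip1, Sgip1, Gnai1, Gnai2, Gnai3 and Gnao1 (receptor partners and G proteins), and Fabp5 and Fabp7 (lipid carriers). Of 22 tested, 2 were higher in WT Ctrl neurites and 0 were lower, no larger a share than the 13.6% of all genes called, with a median log2 ratio of −0.07. Abhd4, which makes precursors of anandamide by another route, had a log2 ratio of 1.08 (SE 0.19, edgeR adjusted p = 0.00386), and Fabp7, a fatty acid carrier, one of 1.10 (SE 0.23, edgeR adjusted p = 0.00924). With KCl, 3 of 22 were higher and 0 lower, where 9.6% of all genes were called, and a difference from that share was not tested. These were Abhd4 (log2 0.73, SE 0.19, edgeR adjusted p = 0.0273), Fabp7 (log2 0.78, SE 0.23, edgeR adjusted p = 0.0471) and Gnai1, an inhibitory G protein subunit (log2 0.81, SE 0.11, edgeR adjusted p = 0.00161). The median with KCl was −0.07. Fabp7 is also abundant in astrocytes. The 9 astrocyte markers summed to 2042 to 3128 CPM in WT Ctrl neurites and 1153 to 1175 CPM in WT Ctrl soma, and to 2361 to 2807 and 1649.9 to 1666 CPM with KCl. None of the 9 was at 0, and their part in the values of Mgll, Abhd4 and Fabp7 was not tested. The sum of the 7 neuronal markers was also higher in neurites, with 10004 to 12146 CPM in WT Ctrl neurites and 4300 to 4631 CPM in soma. It includes Camk2a, which the study names among the RNAs most enriched in neurites, so the sum need not follow each of the 7.

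KCl treatment addressed whether depolarization changes the abundance of these RNAs. None of the 5 genes reached the threshold of 2-fold and an adjusted p of at most 0.05 in WT soma or WT neurites, and Napepld, lower in both fractions, came closest. In WT soma, 0 of 5 were called by edgeR (3 at an unadjusted p of at most 0.05) and 0 by DESeq2, where 6.7% of all genes tested were called. In WT neurites the counts were 0 by edgeR (2 at an unadjusted p) and 0 by DESeq2, against 5.03% of all genes tested. The median log2 change of the 5 was −0.04 in soma and 0.00079 in neurites, against 0.01 over all genes in each fraction.

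Napepld stood at 14.8 and 15.7 CPM in WT Ctrl soma and at 10.2 and 9.34 CPM in WT KCl soma, a log2 change of −0.72 (SE 0.23, 95% interval −1.21 to −0.22, unadjusted p = 0.00937, edgeR adjusted p = 0.0635). The soma groups did not overlap. In neurites it stood at 11.3 and 18.1 CPM in Ctrl and at 9.64 and 6.98 CPM in KCl, a log2 change of −0.78 (SE 0.23, unadjusted p = 0.00730, edgeR adjusted p = 0.0677). DESeq2 gave Napepld an adjusted p of 0.0230 in soma and 0.00728 in neurites, with changes that also stayed under 2-fold. Without WT Ctrl neurite replicate 1 the change in neurites was −1.09 and was called (edgeR adjusted p = 0.0186).

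Daglb and Cnr1 had small positive values in both fractions. Daglb went from 43.2 and 40.3 CPM to 51.1 and 57.0 CPM in soma, with a log2 change of 0.30 (SE 0.11, edgeR adjusted p = 0.123), and the change in neurites was 0.28 (SE 0.11, edgeR adjusted p = 0.174). Cnr1 had a log2 change of 0.29 (SE 0.13, edgeR adjusted p = 0.173) in soma and 0.26 (SE 0.12, edgeR adjusted p = 0.257) in neurites. Neither passed the test. The inhibitory markers listed above summed higher with KCl in both fractions, and the astrocyte markers in soma (1649.9 to 1666 CPM against 1153 to 1175 CPM), while their neurite ranges overlapped. Their part in these values was not tested.
Faah showed the smallest values, with 140.5 and 140.7 CPM in WT KCl soma and 156 and 156 CPM in WT KCl neurites. Its 95% intervals were −0.26 to 0.18 in soma and −0.22 to 0.22 in neurites, both inside the 2-fold limits. Mgll changed by 0.17 (95% interval −0.18 to 0.52) in soma and −0.21 (95% interval −0.56 to 0.14) in neurites, both given as a description. Dagla had a log2 change of −0.68 (SE 0.39) in soma, which was −1.64 and called without WT KCl soma replicate 2 (edgeR adjusted p = 0.00266).

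Of the related genes (22 tested in soma, 21 in neurites), 1 rose and 0 fell in each fraction. This was Ptgs2, the cyclooxygenase that also oxidises endocannabinoids and is known as a gene induced by activity, which rose from 0.777 to 5.74 CPM in soma (log2 2.81, SE 0.33, edgeR adjusted p = 0.000329) and from 0.357 to 5.37 CPM in neurites (log2 3.86, SE 0.39, edgeR adjusted p = 0.000178). The medians of the list were 0.15 and 0.04.

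The change of neurite enrichment with KCl was fitted with 1 term per insert and called at 1.5-fold with p, before adjustment, of 0.05 or less. The study tested this change with Xtail and kept the less significant result of a pair of pipelines, while here it rests on a single edgeR interaction. The insert terms take soma and neurite libraries with the same replicate number as 1 insert, which the labels do not state. At this rule 3.36% of all genes tested were called, and none at an adjusted p. Of the genes called, 59.7% were higher, and 43.4% with RLE in place of TMM scaling. Apart from Mgll, 0 of 5 members were called by edgeR at the unadjusted p, and 0 by DESeq2. The median of the 5 was −0.02, against 0.05 over all genes tested. The log2 change of the ratio was −0.03 (95% interval −0.43 to 0.37) for Cnr1 and 0.04 (95% interval −0.35 to 0.43) for Faah. Mgll is described only, with log2 ratios between same-numbered libraries of 1.53 and 1.92 in Ctrl and 1.17 and 1.33 in KCl. The ratios with KCl lay below those without, but the choice of the gene may rest on the Ctrl ratios, so nothing is read from this. Dagla had a log2 change of 0.64 (SE 0.58), with the spread of its soma libraries described above, and without WT KCl replicate 2 it was 1.75 and called at the unadjusted p. The related genes gave 2 rises and 1 fall at the unadjusted p, Ptgs2 (log2 1.09, unadjusted p = 0.0408), Gnai1 (log2 0.63, unadjusted p = 0.00701) and Cnr2 (log2 −2.29, unadjusted p = 0.0497, at 0.0981 CPM in WT KCl neurites), all with an adjusted p of 0.999 in edgeR, and a list median of 0.03.

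**Figure D3:**
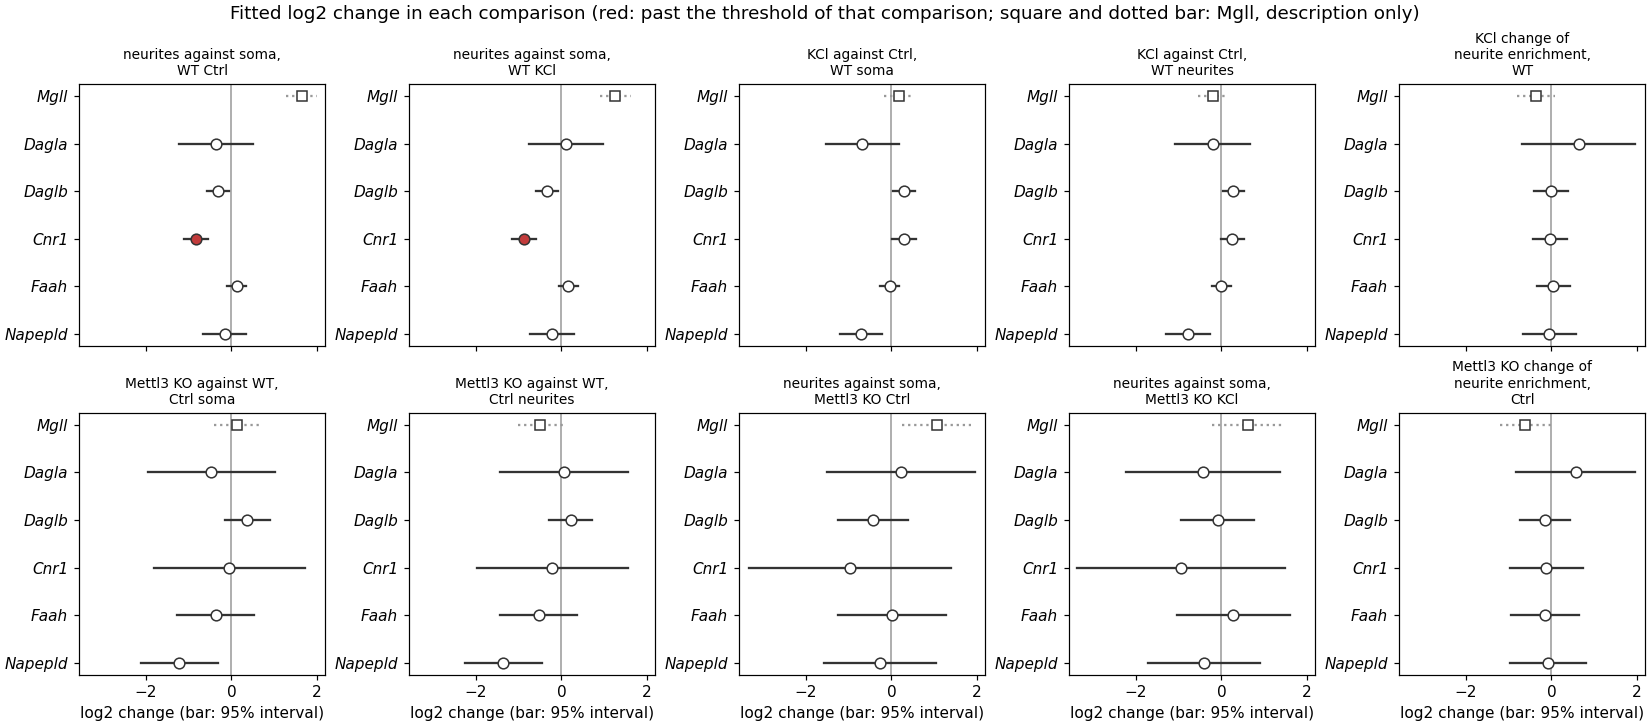
Fitted log2 change (horizontal axis, with its 95% interval) of each gene in the 10 comparisons. Red points passed the threshold of their comparison, which were Cnr1 in WT Ctrl and WT KCl for neurites against soma, and squares with dotted bars mark Mgll, given as a description. The intervals of Cnr1 and Dagla are widest where Mettl3 KO libraries enter.

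Loss of Mettl3 was compared with WT in untreated soma and neurites, in a fit of all 16 libraries. The spread between Mettl3 KO libraries was large, and none of the 5 members passed the test in either fraction. In Ctrl soma, 0 of 5 were called by edgeR (1 at an unadjusted p) and 0 by DESeq2, with 0.185% of all genes tested called. In Ctrl neurites the counts were 0 by edgeR (1 at an unadjusted p) and 0 by DESeq2, with 0.188% of all genes tested called. The medians of the 5 were −0.37 and −0.21, against 0.02 and 0.01 over all genes. None of the 22 related genes tested was called in either fraction by edgeR, with list medians of 0.12 in soma and −0.03 in neurites.

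Napepld was again the lowest in these comparisons, which share their WT Ctrl libraries with the KCl comparisons above. In Mettl3 KO Ctrl it stood at 4.43 and 8.68 CPM in soma and 4.28 and 7.09 CPM in neurites, below every WT Ctrl library of the same fraction. The log2 change was −1.22 (SE 0.41, unadjusted p = 0.0116, edgeR adjusted p = 0.385) in soma and −1.36 (SE 0.41, unadjusted p = 0.00643, edgeR adjusted p = 0.346) in neurites. Without the pair of libraries of KCl-treated Mettl3 KO replicate 1 the adjusted p was 0.132 and 0.130.
Mgll stood at 71.0 and 89.5 CPM in Mettl3 KO Ctrl soma, a log2 change of 0.12, and at 156 and 191 CPM in Mettl3 KO Ctrl neurites, a log2 change of −0.49, both as a description. Its Mettl3 KO neurite libraries lay below both WT Ctrl neurite libraries, whose high values go with the trait that chose the gene. Cnr1 showed how far the Mettl3 KO soma libraries differed, with 178 and 297 CPM around the 263 and 229 CPM of WT, and its interval ran from −1.82 to 1.71. For Daglb, Faah and Dagla the soma values were 0.37, −0.37 and −0.47 and the neurite values 0.21, −0.54 and 0.06, none past an unadjusted p of 0.05. Without the pair of libraries of KCl-treated Mettl3 KO replicate 1, Faah had log2 changes of −0.42 in soma (unadjusted p = 0.0449, edgeR adjusted p = 0.263) and −0.51 in neurites (unadjusted p = 0.0173, edgeR adjusted p = 0.207). Its Mettl3 KO neurite libraries, at 112 and 108 CPM, lay below the 157 and 163 CPM of WT. The 7 neuronal markers summed to 5907 to 7872 CPM in Mettl3 KO Ctrl neurites, against 10004 to 12146 CPM in WT, while their soma ranges overlapped. They include Map2 and Camk2a, for which the study reports less neurite enrichment in Mettl3 KO neurons. This sum therefore does not stand for the neuronal share alone. The 9 astrocyte markers summed to 1935 to 2528 CPM in Mettl3 KO Ctrl soma, against 1153 to 1175 CPM in WT, while their neurite ranges overlapped. The part of cell types in the differences between genotypes was not tested.

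Within Mettl3 KO neurons, neurites were compared with soma on the 8 Mettl3 KO libraries, at the threshold used for WT. In Ctrl, 0 of 5 members were called by edgeR (0 at an unadjusted p) and 0 by DESeq2, with 0% of all genes tested called. With KCl, 0 of 5 were called by edgeR (0 at an unadjusted p) and 0 by DESeq2, again with 0% of all genes tested called. Medians of the 5 were −0.27 and −0.40, against −0.11 and −0.01 over all genes. None of the 22 related genes tested was called by edgeR, with list medians of 0.05 and 0.10.
As a description, the log2 ratio of Mgll was 1.06 (SE 0.35) in Ctrl, and its 4 libraries, 71.0 and 89.5 CPM in soma and 156 and 191 CPM in neurites, did not overlap between the fractions. With KCl the libraries stood at 82.0 and 89.9 CPM in soma and 128 and 149 CPM in neurites, again apart, with a log2 ratio of 0.62 (SE 0.36). Leaving out both libraries of replicate 1 with KCl, the values were 1.07 in Ctrl and 0.75 with KCl.
Cnr1 had log2 ratios of −0.97 (SE 1.03) in Ctrl and −0.94 (SE 1.05) with KCl. Its levels were 33.0 CPM (soma) and 13.9 CPM (neurites) in KCl-treated Mettl3 KO replicate 1, against 207 and 118 CPM in replicate 2. Dagla, at 25.8 and 13.6 CPM, was likewise lowest in that replicate. These are the libraries with high non-neuronal and low neuronal markers, and the 7 inhibitory markers summed to 226 and 114 CPM there, against 987 and 555 CPM in replicate 2. Faah was lowest there too, at 54.5 and 43.8 CPM against 90.4 and 141 CPM. Mgll stood at 82.0 and 128 CPM, against 89.9 and 149 CPM in replicate 2, and Daglb at 40.3 and 40.1 CPM, against 54.9 and 54.3 CPM. The part of the other cell types in these values was not tested.

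**Figure D4:**
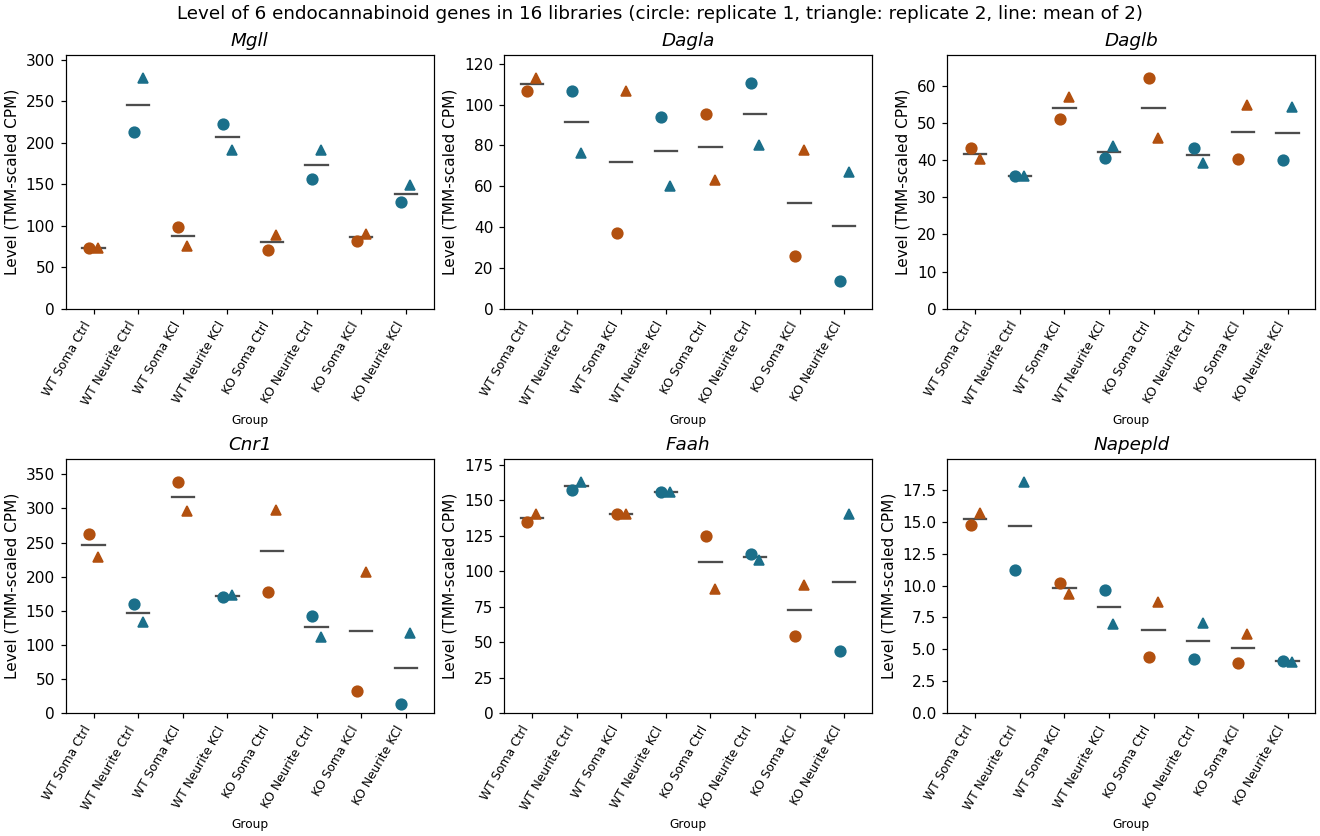
Level (TMM-scaled CPM, vertical axis) of each gene in the 16 libraries, by group, with the replicate as the symbol and the mean of 2 as a line. Cnr1 and Dagla drop in replicate 1 of KCl-treated Mettl3 KO neurons (33.0 and 13.9 CPM, and 25.8 and 13.6 CPM), Dagla also in WT KCl soma replicate 1 (37.3 CPM), and Mgll is higher in neurites than in soma in every group.

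The change of neurite enrichment between Mettl3 KO and WT in Ctrl was fitted with 1 term per insert on all 16 libraries, by the same rule on the p before adjustment. Apart from Mgll, 0 of 5 members were called by edgeR at the unadjusted p and 0 by DESeq2, with 4.19% of all genes tested called at the unadjusted p and none at an adjusted p. The median of the 5 was −0.12, against −0.03 over all genes. For Mgll the log2 ratios between same-numbered libraries, 1.14 and 1.10 in Mettl3 KO and 1.53 and 1.92 in WT, are given as a description. The Mettl3 KO ratios lay below the WT ratios, but the gene was chosen by a high ratio, possibly in these WT libraries, so nothing is read from this. Cnr1 had a log2 change of −0.12 (95% interval −0.98 to 0.73), which was −0.66 and past the unadjusted threshold without Mettl3 KO Ctrl replicate 1. Of the related genes, Fabp5, a fatty acid carrier (log2 1.52, unadjusted p = 0.0308), and Plcb4, a phospholipase C (log2 −0.70, unadjusted p = 0.0340), were called at the unadjusted p, both with an edgeR adjusted p of 0.934, and the list median was −0.08.

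Editing by DART-seq was read from values that the authors averaged over libraries, so they carry no spread between replicates, and the reads behind each site are not known. At single sites, the C-to-U fraction was 8.11, 4.58, 4.20 and 7.66% along Cnr1 in the order of the windows above, 1.02 and 7.11% along Mgll, and 3.35, 11.0, 6.61 and 7.28% along Faah. The median over all sites was 3.54%, and 8 of the 10 sites were above it. The site of Mgll nearest the stop codon was above 6.7% of all sites, and the highest member site, at 11.0% in Faah, was above 92.6% of all sites.

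The score of an RNA, a sum over its called sites, was available for Cnr1, Faah and Mgll among 5643 RNAs. Dagla, Daglb and Napepld have no row in that table, which lists RNAs with called sites only. The authors required a minimum number of reads at a site, so a missing row does not show that an RNA lacks m6A. In WT the scores of Cnr1 and Faah, with 4 sites each, were 0.248 and 0.271, and that of Mgll, with 2 sites, was 0.0543, against a median of 0.103. In Mettl3 KO they were 0.0969, 0.125 and 0.0281, against a median of 0.0285. The site fraction of 7.11% printed above for Mgll exceeds its WT score of 0.0543. The deposited fractions and score of Mgll therefore do not match as parts of a sum, and the reason is not known. The ratio of WT to Mettl3 KO was 2.56 for Cnr1, 2.16 for Faah and 1.93 for Mgll, with a median of 3.10 over 5230 RNAs. A site had to be higher in WT than in Mettl3 KO to be called, so this direction is fixed by the calling.
Between fractions, Cnr1 scored 0.175 in soma and 0.383 in neurites, Faah 0.230 and 0.337, and Mgll 0.0370 and 0.0610. The ratio of neurites to soma was 2.19 for Cnr1, above that of 81.8% of RNAs, 1.65 for Mgll and 1.46 for Faah, with a median of 1.33 over the 5423 RNAs with both scores above 0, and 68.8% of all 5643 RNAs scored higher in neurites. Cnr1, whose RNA level was lower in WT neurites than in soma, thus had the higher editing score in neurites. The authors describe their soma and neurite averages of site editing as holding Ctrl and KCl samples together, so the scores may mix the treatments. Without values per library the scores were not tested.

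**Figure D5:**
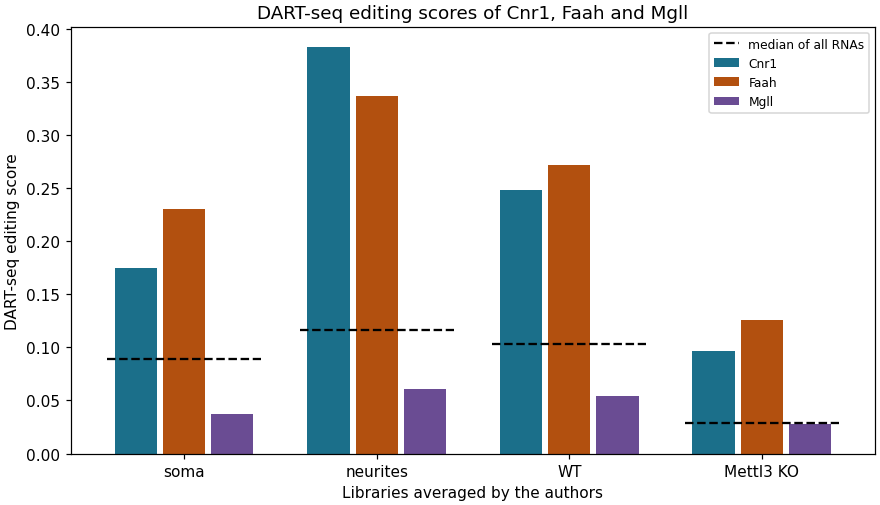
DART-seq editing score (vertical axis, sum of C-to-U fractions over called sites) of Cnr1, Faah and Mgll in 4 averages made by the authors, with the median of 5643 RNAs as a dashed line. Cnr1 (0.383) and Faah (0.337) are highest in neurites, and Mgll stays below the median in each average.

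The genes whose levels ran most like those of each member over the 8 WT libraries are named as a description, from 14865 genes averaging 100 counts or more. The libraries share their fraction and treatment, so r also carries these groups. For Mgll they were Phactr1 (Pearson r = 0.999) and Agap1 (0.998), and for Cnr1 Tmx1 (0.991) and Atad1 (0.989). For Faah they were Klhl34 (0.997) and Csdc2 (0.993), for Dagla Hrh3 (0.981) and Nfe2l1 (0.980), for Daglb Tmem62 (0.986) and Chgb (0.986), and for Napepld Ptpn3 (0.976) and B4galt7 (0.976).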

How the data were processed

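Soma and neurite RNA of mouse hippocampal neurons was measured by RNA-seq (16 libraries from 50 ng of RNA each, low-input unstranded kit) and DART-seq (16 libraries). The deposited table holds raw counts per gene, which the authors made with STAR 2.7.7a (mm10) and featureCounts 2.0.1 on exons of Ensembl release 97, multi-mapping reads included and strand ignored, so overlapping genes can share reads. Its exon length column, another deposited measure, gave FPKM. The deposited DART-seq score, the authors' sum of C-to-U fractions over the called sites of an RNA, and the deposited C-to-U fraction of each site were averaged over libraries by the authors, who called sites against Mettl3 KO libraries. Tables of the authors' own neurite enrichment hold a mean signal per gene (counts that the authors scaled by DESeq2 size factors) with fold changes and p-values. Of these only the symbols were used.

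Counts were fitted with edgeR 4.0.16 in R 4.3.3, by its quasi-likelihood test with TMM scaling. Tests were two-sided, and p-values were adjusted by Benjamini and Hochberg's method over every gene averaging 10 counts or more (without the 37 mitochondrially encoded genes). Fits had 1 term per group and, for changes of enrichment, 1 term per insert. DESeq2 1.42.0, RLE scaling, other count minimums, other sets of libraries, each library left out and the replicate block served as alternatives. The fits were tested on simulated data. Totals of 33789183 to 71394235 counts set the precision of each library. The p-values rest on a spread estimated over all libraries of a fit, with 2 litters a group. The fits by group had no litter term, although Ctrl and KCl cultures shared litters. Groups follow the sample labels. Named genes are the 6 members, Mettl3, related genes of the pathway that passed the threshold, and the pair of genes most like each member. Mgll entered every fit but its values are printed without a test, a choice made after the fits, since the rule that picked it does not name its libraries. The members, marker lists and related genes were chosen with earlier results of these data known. Site positions and sequences were read from GRCm38 with GENCODE annotation, and figures were drawn with matplotlib 3.10.9.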

Additional observations from a re-analysis of the deposited data

Results flagged for a closer look

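In some pairs of conditions, both replicates of a gene moved one way in one and the other way in the other. These are log2 ratios of single libraries with the same replicate number.

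For Mgll, KCl over Ctrl in Mettl3 KO neurons was 0.21 and 0.0070 in soma and −0.28 and −0.36 in neurites, and this difference was not tested. For Dagla, neurites over soma was −0.0015 and −0.57 in WT Ctrl and 0.21 and 0.35 in Mettl3 KO Ctrl, where the test of the difference gave an unadjusted p of 0.379 in edgeR. The Dagla values of 0.21 and 0.35 in Mettl3 KO Ctrl also stood against −0.92 and −0.22 in Mettl3 KO KCl, a difference that was not tested. The −0.92 of Dagla, and the 0.21 and −0.28 of Mgll, come from KCl-treated Mettl3 KO replicate 1, whose libraries had high non-neuronal markers.

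For Cnr1, KCl over Ctrl in soma was 0.36 and 0.37 in WT and −2.43 and −0.52 in Mettl3 KO, which was not tested, and −2.43 comes from a library with high non-neuronal markers. For Faah, KCl over Ctrl was 0.061 and 0.0048 in WT soma and −0.0092 and −0.064 in WT neurites, and the test of the difference gave an unadjusted p of 0.822 in edgeR.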

How the results depend on the processing

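Of 659 values of single members under an alternative, 603 kept their direction and their side of the threshold, 9 crossed the threshold and 47 changed sign, 36 of these with a library or insert left out. Values of Mgll are among them, except for neurites against soma in WT Ctrl and the changes of enrichment. With all 16 libraries in the fit, the members called for neurites against soma fell to 0 in WT Ctrl and in WT KCl, where Cnr1 had been called in each. Without a filter on low counts, 1 member (Dagla) was called for the KCl change of neurite enrichment in WT. The sign changes apart from left-out libraries were all of Faah, whose values lay near 0: KCl against Ctrl was 0.031 in soma with all 16 libraries, and in neurites −0.038 with DESeq2, −0.038 with RLE scaling, −0.039 with all 16 libraries, −0.0084 without a filter and −0.028 with 4 libraries alone. The KCl change of enrichment of Faah was −0.025 with DESeq2, −0.025 with RLE scaling and −0.073 with all 16 libraries, and its neurite over soma ratio in Mettl3 KO Ctrl was −0.016 at a mean count of at least 100 and −0.019 with the replicate block. The cause was not tested.

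With 1 library or insert left out, members called ranged from 0 to 1 for KCl against Ctrl in WT soma and in WT neurites, and for both changes of enrichment. Neurites against soma ranged from −0.53 to 0.15 for Napepld in WT Ctrl, from −0.44 to 1.08 for Dagla and −0.48 to 0.0091 for Napepld in WT KCl. KCl against Ctrl ranged in soma from −0.053 to 0.060 for Faah and −0.0029 to 0.34 for Mgll, and in neurites from −0.56 to 0.092 for Dagla and −0.025 to 0.021 for Faah. The KCl change of enrichment ranged from −0.11 to 0.059 for Cnr1, −0.058 to 0.031 for Daglb, −0.34 to 0.25 for Napepld and −0.45 to 1.75 for Dagla. Mettl3 KO against WT ranged from −0.50 to 0.27 for Cnr1 and −0.083 to 0.28 for Mgll in soma and −0.17 to 0.32 for Dagla in neurites. Neurites against soma in Mettl3 KO Ctrl ranged from −0.68 to 0.36 for Napepld, −0.0045 to 0.62 for Dagla and −0.19 to 0.35 for Faah, and with KCl from −2.04 to 0.61 for Dagla, −0.34 to 0.21 for Daglb, −3.25 to 0.97 for Cnr1 and −0.83 to 0.97 for Faah. The Mettl3 KO change of enrichment ranged from −0.31 to 0.080 for Faah, −0.37 to 0.22 for Napepld and −0.66 to 0.48 for Cnr1.

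Same-numbered soma and neurite libraries deviated together with r = −0.141 in WT Ctrl, 0.0153 in WT KCl, 0.0716 in Mettl3 KO Ctrl and 0.901 in Mettl3 KO KCl. Same-numbered Ctrl and KCl libraries did so with r = 0.07 in WT soma and −0.0855 in WT neurites. In Mettl3 KO these values were 0.142 and 0.187. Outside soma and neurites of KCl-treated Mettl3 KO neurons, the replicate numbers were thus not shown to pair the samples. In that group, both libraries of replicate 1 stood apart in their markers, as given above. Apart from Mgll, the replicate block left Cnr1 called for neurites against soma in WT Ctrl and in WT KCl, and 0 members in the other comparisons, as without it. Crossed numbers in WT Ctrl, an alternative chosen after seeing the data, gave 1 member called for neurites against soma and 0 for each change of enrichment.

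Counts over all genes depended on the setting more than the members did. With all 16 libraries, genes called fell from 3145 and 2211 to 0 and 0 for neurites against soma in WT Ctrl and KCl, and from 1611 and 1109 to 341 and 263 for KCl in soma and neurites. Mettl3 KO against WT went from 44 to 413 with DESeq2 in soma and from 41 to 313 in neurites, and to 505 and 353 without a filter. The KCl change of enrichment went from 779 to 498 with DESeq2, 1457 without a filter and 291 with all 16 libraries, and the Mettl3 KO change from 962 to 1584 with DESeq2, 2676 without a filter, 347 with 8 libraries alone and 296 without the insert terms.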
